A study of Mus musculus with 9 samples.

Results

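The sites described here are HOX13 peaks that lie in gene deserts, the long stretches of the genome without coding genes. Peak intervals of the 6 wild-type (wt) lists were merged where they shared at least 1 bp, and a merged site was retained when at least 3 of the 6 lists called it. A retained site was a desert site when its midpoint lay in no annotated gene and more than 200 kb from the nearest protein-coding transcription start site (TSS) on the autosomes of mm10. Of 136504 merged sites, 47109 were retained, and 4585 of these (9.73%) met the rule. Positions and calls chose them, and sequence was not used. A call needs a peak past the threshold of its list, so peak height entered through the calls. The closest of them to the limit lay 200.1 kb from a TSS, and the farthest retained intergenic site just outside it lay 199.997 kb away. Intergenic sites between 5 and 200 kb from a TSS, of which 11041 were retained by the same rule, served for comparison and are called near intergenic sites.

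The libraries were made by CUT&RUN, in which an antibody tethers micrococcal nuclease to a DNA-bound protein and the released fragments are sequenced. HOXA13 and HOXD13 were profiled in distal forelimb cells of mouse embryos of the strain B6CBAF1, which received no treatment. There were 3 wt HOXA13 and 3 wt HOXD13 lists at E12.5, 2 HOXA13 lists at E12.5 from the line II1TDOM 542 (542) and 1 HOXD13 list from that line whose title gives E11.5. The 542 embryos were homozygous for 1 added copy of II1, an enhancer of the HoxD cluster active in distal limbs, inserted with an HBB promoter and a LacZ reporter into the T-DOM domain flanking that cluster on chromosome 2. The wt embryos carried no insertion. The methods describe pools of limb tissue from several embryos of different litters. All 542 libraries came from 1 founder line, and the growth protocol gives a single collection day for every library, which does not match the E11.5 of the title. Lists held 23599 to 115755 autosomal intervals, called from 36.9 to 65.5 M read ends per library, a total recovered from the peak values. The 2 wt replicates 3, of which the HOXD13 one was reanalysed from an earlier sample, stood apart from the other wt lists in GC content and in the share of intervals in deserts. Comparisons of the wt lists by antibody and against near intergenic sites are therefore given without them as well. Shares by call class, values by distance class, counts per desert and densities by flanking gene were not recomputed without them.

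HOXA13 and HOXD13 are the posterior homeodomain factors of the limb bud, needed together for digits to form. Gene deserts often flank genes that control development and can carry enhancers that act over long distances, as the desert beside the HoxD cluster does in digits. Homeodomain proteins of the HOX13 group prefer a sequence ending in TAAA, written here as CYNRTAAA, in which Y stands for either pyrimidine, R for either purine and N for any base.

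Sequences of the most enriched desert sites that carried this consensus are shown first, to set the letters searched beside the values. Among the 10 sites called in all 6 wt lists with the highest median percentile of fold enrichment, at most 2 per desert, 4 held the consensus within 50 bp of the median summit, and 3 of these are printed. Each line gives the GRCm38 reference (RefSeq, the assembly of mm10), plus strand, from 50 bp before to 50 bp after the median summit, with matches to the consensus on either strand in capitals. The site between Fat3 and Chordc1 was chr9:17289215-17289315 and held 2 matches, the site between Pdgfd and Dync2h1 was chr9:6668313-6668413, and the site between Fam181b and Tenm4 was chr7:95720127-95720227.
Fat3 to Chordc1: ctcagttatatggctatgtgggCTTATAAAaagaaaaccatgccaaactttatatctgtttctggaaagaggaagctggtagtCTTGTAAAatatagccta
Pdgfd to Dync2h1: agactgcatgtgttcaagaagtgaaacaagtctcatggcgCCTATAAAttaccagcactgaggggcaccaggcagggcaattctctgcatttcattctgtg
Fam181b to Tenm4: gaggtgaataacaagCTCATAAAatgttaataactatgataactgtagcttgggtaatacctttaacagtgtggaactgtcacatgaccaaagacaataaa

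At the first of these, 788 kb from the start of Fat3, an atypical cadherin gene, the HOXA13 lists gave fold enrichments of 17.7, 17.3 and 9.30 in replicates 1, 2 and 3 and the HOXD13 lists 8.75, 14.2 and 7.43. Fold enrichment is the pileup of read ends at the summit over the local background. The pileup was 510 read ends in HOXA13 replicate 1 (95% Poisson interval 466.7 to 556.2) and 65 in HOXD13 replicate 1 (50.2 to 82.9), the highest and lowest of the 6 lists. Such intervals cover counting error only. The 10 highest sites had median percentiles between 99.1 and 99.7 within their lists, and all 10 were overlapped by all 3 542 lists. They lay in 10 different deserts, and the flanking genes included Robo2, Slit2 and Tenm3, which guide or match axons.

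Among the 10 sites, the most read ends lay at the site between Got2 and Cdh8, a cadherin gene (chr8:97250948-97252644), 1363 kb from the nearest protein-coding TSS. There the HOXA13 pileups were 780, 357 and 153 read ends and the HOXD13 pileups 117, 303 and 154, and none of the 6 main summits held the consensus in the 50 bp window centred on it. In fold enrichment, the highest value at all 10 sites came from HOXA13 replicate 1 or 2, the highest HOXD13 value from replicate 2, and the lowest of the 6 from one of the replicates 3.

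Desert sites were shared between antibodies, with more calls for HOXA13. The HOXA13 lists called 4455, 3896 and 3847 of the 4585 sites in replicates 1, 2 and 3, and the HOXD13 lists 1834, 3625 and 2890. As shares these were 97.2%, 85.0% and 83.9% for HOXA13 and 40.0%, 79.1% and 63.0% for HOXD13. Every HOXA13 list called more desert sites than every HOXD13 list. Over all 47109 retained sites the same lists called 97.5%, 85.1% and 76.0% with HOXA13 and 44.1%, 88.8% and 57.8% with HOXD13, so that the share was higher in deserts in both replicates 3 and lower in HOXD13 replicates 1 and 2. The ratio of the geometric means was 1.52 (log2 0.60). It is given as a description, since the rule counted calls in the same 6 lists: the log2 ratio was 0.73 for sites in at least 2 lists, 0.43 for at least 4 and 0.21 for at least 5. It was 0.33 without HOXD13 replicate 1, 0.40 without HOXA13 replicate 1 and 0.80 without both replicates 3. The same-numbered HOXA13 list exceeded the HOXD13 list for each of the 3 numbers, and HOXA13 lists were also longer on average, with 66600 ± 16434 autosomal intervals against 45422 ± 27076 (SD, n = 3 each).

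**Figure D1:**
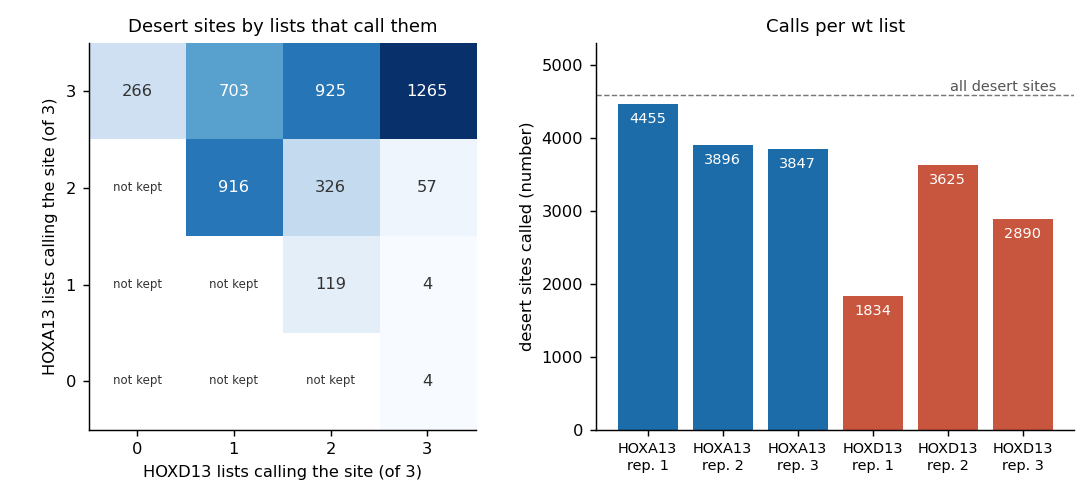
Left, the number of desert sites by how many of the 3 HOXA13 lists (vertical) and 3 HOXD13 lists (horizontal) called them; combinations under 3 lists were not kept by the rule. Right, the number of desert sites called in each wt list, with the dashed line at all 4585; the 3 HOXA13 bars stand above the 3 HOXD13 bars.

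All 6 lists called 1265 desert sites (27.6%), against 29.1% of all retained sites and 26.8% of near intergenic sites. A further 1305 sites were called in exactly 3 lists, 1033 in 4 and 982 in 5. Calls in all 3 HOXA13 and no HOXD13 list were found at 266 desert sites (5.80%), against 3.81% of all retained sites and 4.16% of near intergenic sites. The opposite pattern, 3 HOXD13 and no HOXA13 list, occurred at 4 desert sites (0.0872%), against 0.0913% of all retained sites. More HOXA13 than HOXD13 lists called 2810 desert sites (61.3%), and more HOXD13 than HOXA13 lists called 184 (4.01%). Among all retained sites these shares were 55.0% and 6.61%. Shares by call class were not recomputed without the replicates 3. Of these, HOXA13 replicate 3 called 83.9% of desert sites and 76.0% of all retained sites.

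Sites called with HOXA13 alone were narrower and lower in the lists that called them, in deserts as near genes. In deserts their median width was 670 bp against 1183 bp for sites in all 6 lists. Their median fold enrichment in HOXA13 replicates 1, 2 and 3 was 4.49, 3.65 and 3.12 against 9.39, 7.45 and 4.63. Near intergenic sites of these 2 classes had median widths of 644 and 1113 bp. Their median fold enrichments were 4.34, 3.48 and 3.21 against 8.82, 6.78 and 4.62. Width is that of the merged site, and a call in every list asks for a higher peak, so the classes favour this order. The 542 lists, which took no part in the rule, overlapped most desert sites called with HOXA13 alone. Of the 256 such sites outside chromosome 2 past the insertion, where coordinates of the 542 genome shift, the 542 HOXA13 lists overlapped 237 and 225 (92.6% and 87.9%) and the 542 HOXD13 list 203 (79.3%). Over all retained sites these lists overlapped 91.4%, 85.4% and 81.9%, and over near intergenic sites called with HOXA13 alone 90.9%, 85.2% and 71.8%, so the desert values lay near the shares of all sites. The 542 HOXD13 list is the longest of the series, with 115755 autosomal intervals. Its stage, genotype and length cannot be told apart.

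The 3 sites of this kind with the highest percentiles lay between Pcsk5 and Ostf1 (chr19:18410691-18411545), Kif2b and Car10 (chr11:92576987-92577496), and Sema3d and Sema3a (chr5:13036226-13036965). At the first of these the HOXA13 fold enrichments were 11.7, 10.3 and 2.31, with pileups of 120, 69 and 17 read ends. All 3 were overlapped by every 542 list, the HOXD13 list included. The 3 highest of the sites called with HOXD13 alone lay between Snx16 and Ralyl (chr3:12504800-12505316), Mctp2 and Rgma (chr7:72592940-72593646), and Rasgrp1 and Thbs1 (chr2:117608946-117609557). The HOXD13 fold enrichments of the first were 2.93, 4.33 and 4.65, with pileups of 14, 31 and 22. Of the 4 sites of this kind, 3 lay outside chromosome 2 past the insertion. The 542 HOXD13 list overlapped 0 of these 3, while each 542 HOXA13 list overlapped 2 of them.

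HOX13 intervals were sparser in deserts than in intergenic sequence closer to genes. Desert sequence made up 481.4 Mb, or 20.1% of the sequenced autosomes, and near intergenic sequence 682.4 Mb. Both lengths count all sequenced bases, also those where reads cannot be placed uniquely. The HOXA13 lists held 16.7, 11.1 and 15.6 intervals per Mb of desert and 30.7, 20.4 and 20.1 per Mb near genes. The HOXD13 lists held 4.27, 11.6 and 9.44 per Mb of desert and 7.15, 26.9 and 12.9 near genes. The desert density was lower in 6 of 6 lists, at 0.592 times the near density (mean log2 ratio -0.76 ± 0.31, SD, n = 6), with p = 0.03125 by a two-sided exact sign-flip permutation test, the smallest it can give, and adjusted p = 0.25 (Benjamini-Hochberg, over 8 tests). The log2 ratio was -0.37 and -0.46 in the 2 replicates 3 and between -1.21 and -0.74 in the other lists. Without both replicates 3 the mean was -0.93. Counted as retained sites, deserts held 9.53 per Mb and near intergenic sequence 16.2 per Mb.

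**Figure D2:**
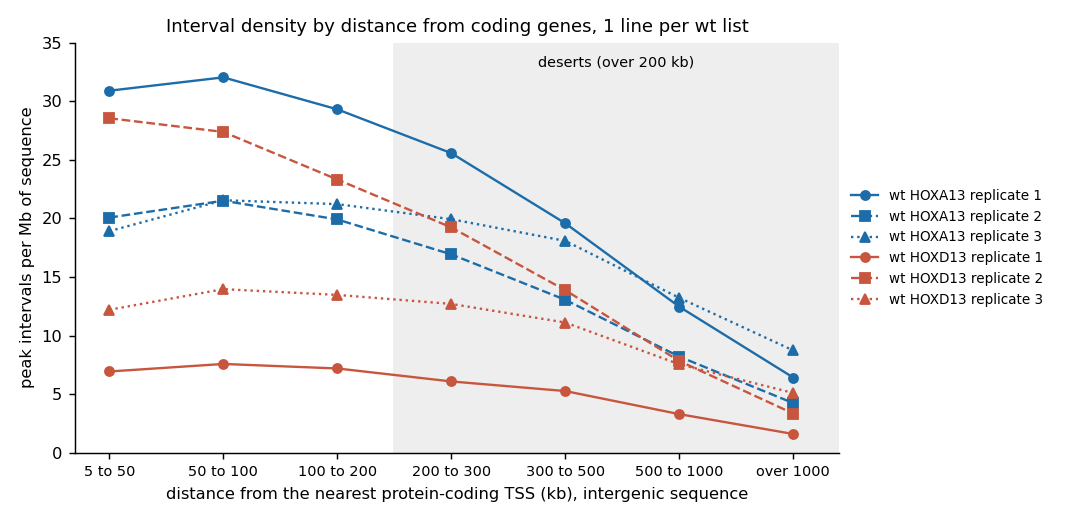
Peak intervals per Mb of intergenic sequence (vertical, linear) by distance from the nearest protein-coding TSS (horizontal, kb), 1 line per wt list; shading marks desert sequence. Every list falls from the 50 to 100 kb class to the class over 1000 kb, and both replicates 3 keep the largest share of their density.

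The decline went on within the deserts. Retained sites numbered 14.1 per Mb at 200 to 300 kb from a TSS, 11.3 at 300 to 500 kb, 7.37 at 500 to 1000 kb and 3.52 beyond 1000 kb, where 260 sites lay in 73.9 Mb. In HOXA13 replicate 1 the interval density fell from 25.6 to 6.41 per Mb between the first and last of these classes, and in HOXA13 replicate 3 from 19.9 to 8.73. The HOXD13 lists showed the same order, from 19.2 to 3.34 per Mb in replicate 2 and from 12.7 to 5.10 in replicate 3. The GC content of the sequence fell over the same classes, from 40.2% to 36.9%, and intervals of the replicates 3 were lower in GC over the whole list, with medians of 41.7% for HOXA13 and 42.7% for HOXD13 against 44.4% to 48.6% in the other wt lists. The part of GC content in the density was not tested. The share of sites called in all 6 lists lay between 25.8% and 28.4%, while the share called with HOXA13 alone was 4.41%, 5.92%, 7.09% and 8.08% from the nearest to the farthest class.

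The 3 members farthest from any protein-coding TSS all lay between Pcdh20 and Pcdh9, a pair of protocadherin genes on chromosome 14, at 2677, 2556 and 2549 kb. The farthest was called in 1 HOXA13 and 2 HOXD13 lists with fold enrichments between 2.63 and 3.71, and no 542 list overlapped it. The other two were each called in 3 HOXA13 lists and 1 HOXD13 list and were overlapped by all 3 542 lists.

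As a share of the list, desert intervals did not separate the antibodies. The share was 9.41%, 9.23% and 13.3% in HOXA13 replicates 1, 2 and 3 and 8.71%, 7.38% and 12.3% in HOXD13 replicates 1, 2 and 3. The groups overlapped, and the highest list of each antibody was its replicate 3. The difference was 1.17 percentage points (10.6 ± 2.28 against 9.46 ± 2.54, SD, n = 3 each), with p = 0.5 by a two-sided exact permutation test and adjusted p = 0.571. Within each replicate number the HOXA13 share was the higher, and without HOXA13 replicate 3 the difference was -0.15 points. Without both replicates 3 it was 1.27 points. Among the 542 lists the share was 11.9% in both HOXA13 lists and 12.4% in the HOXD13 list. With chromosome 2 past the insertion left out, the 542 HOXA13 lists exceeded the wt HOXA13 lists by 1.305 points (12.0 ± 0.0414, n = 2, against 10.7 ± 2.29, n = 3), with p = 0.4 by the exact permutation test and adjusted p = 0.571. The difference was 2.63 points without wt HOXA13 replicate 3, 0.596 without replicate 2 and 0.690 without replicate 1. The 542 values fell between wt replicate 3 and the other wt HOXA13 lists, and the median GC of 542 intervals, 41.9% to 42.9%, was near that of both replicates 3.

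**Figure D3:**
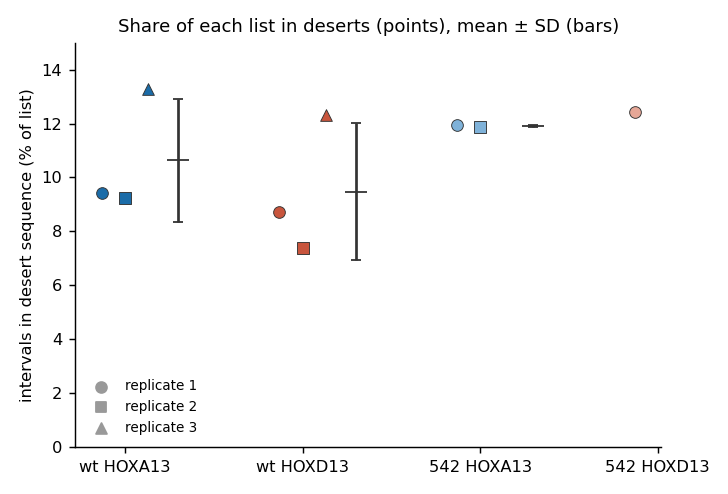
Percent of autosomal peak intervals that lie in desert sequence (vertical, from 0) for each list, by genotype and antibody; symbols give the replicate number, and bars the mean ± SD where a group has 2 or 3 lists. The wt replicates 3 sit at 13.3% and 12.3%, above the other wt lists, and the 542 lists at 11.9% to 12.4%.

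Peak height in deserts was compared with that nearer to genes by rank. The highest fold enrichment of each site was ranked among all intervals of its list. Medians over desert sites were at the 76.7, 70.99 and 67.4 percentile in the HOXA13 lists, against 73.1, 64.5 and 65.8 over near intergenic sites, and at 53.0, 69.7 and 60.5 in the HOXD13 lists, against 54.2, 69.2 and 60.5. All 3 HOXA13 lists placed desert sites higher, while the HOXD13 lists differed by -1.20, 0.49 and 0 percentile points. Over the 6 lists the difference was 1.82 ± 2.79 points (SD), with p = 0.1875 by the exact sign-flip permutation test and adjusted p = 0.5. Without both replicates 3 it was 3.33 points. It was 0.865 without HOXA13 replicate 1, 0.475 without HOXA13 replicate 2 and 0.656 without HOXD13 replicate 2. Calls depend on height, and the difference changed with the number of lists asked for. It was 1.72 points for sites in at least 2 lists, 0.70 for at least 4 and 0.13 for at least 5. Ranked by −log10 p-value in place of fold enrichment, it was 0.67 points. Over the 1265 desert sites called in all 6 lists, the median pileup per 1 M read ends was 1.96, 1.296 and 1.06 in the HOXA13 lists and 0.623, 0.936 and 0.840 in the HOXD13 lists. Over the 2954 near intergenic sites in all 6 lists it was 2.01, 1.27 and 0.943 for HOXA13 and 0.649, 1.17 and 0.759 for HOXD13. Near sites had the higher pileup in HOXA13 replicate 1 and HOXD13 replicates 1 and 2, and desert sites in the other lists.

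The HOX13 consensus was compared between desert and near summits in every list. In the 50 bp around the main summit it was present at 17.6%, 16.6% and 12.8% of desert sites in the HOXA13 lists and at 13.7%, 14.1% and 9.69% in the HOXD13 lists. Near intergenic sites gave 17.1%, 16.1%, 11.9%, 15.9%, 13.9% and 9.66% in the same order, and over all retained sites the shares ran from 8.51% to 14.8%. Windows of the same length 1000 bp to either side of desert summits held it in 2.39% to 2.96%, below every summit value. The log2 ratio of desert to near shares was 0.00 ± 0.11 (SD, n = 6), with p = 1 by the exact sign-flip permutation test. Its direction turned with the setting: it was -0.10 with intervals of fold enrichment 5 or more (p = 0.03125, exact) and 0.14 with the core RTAAA alone (p = 0.03125, exact). Near flanks also held the consensus less often than desert flanks in 100 bp windows, 4.56% against 5.84%.

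HOXA13 lists carried the consensus at 15.6% ± 2.55 of desert summits and HOXD13 lists at 12.51% ± 2.45 (SD, n = 3 each). The difference of 3.14 percentage points was within the spread of the libraries, with p = 0.3 by the exact permutation test and adjusted p = 0.571. It was 1.81 points without HOXD13 replicate 3, 2.07 without HOXA13 replicate 1, 4.30 without HOXA13 replicate 3 and 2.79 without both replicates 3. By the number of lists that called a site, the consensus averaged 10.7% over the lists for 3, 12.8% for 4, 12.7% for 5 and 16.3% for 6. At the 266 sites called with HOXA13 alone it was present at 20.7%, 18.1% and 13.9% in HOXA13 replicates 1, 2 and 3, beside 19.5%, 18.9% and 14.8% at sites in all 6 lists.

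Other motifs were counted in 100 bp at desert summits and in flanks 1000 bp away. The homeodomain core TAATTA was present at 8.67% of desert summits and 4.38% of desert flanks, as means of the 6 lists. The letters ACAAAG, bound by SOX factors, were at 8.10% and 9.41%, the E-box CAGATG at 7.91% and 7.02%, and the AP-1 site TGANTCA at 3.10% and 3.13%. The core of the motif of CTCF, an insulator protein, was at 0.296% of desert summits and at 1.93% of near intergenic summits. All were searched on both strands, TAATTA and TGANTCA reading alike on both strands, and none of them contains another. A match is a description of the sequence only.

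Desert sites were lower in GC than near intergenic sites, with medians of 40.2% and 44.0%, and held 8.24 and 12.3 CpG per kb. Their median width was 892 bp (274 to 3567 bp) against 826 bp. A median of 12.4% of the bases of desert sites were soft-masked in the reference, as repeats are. Of the desert sites 42 (0.916%) were over 50% soft-masked, against 1.97% of near intergenic sites. The study discarded alignments of low mapping quality, which limits peaks in repeats. The soft-masked share of the desert sequence itself is not given, so these values do not show whether sites avoid repeats. In 79.3% of desert sites at least 1 list had 2 or more summits. The median distance to the next desert site was 19.5 kb, and 33.5% had another within 10 kb, against 17.1 kb and 35.2% for near intergenic sites. At 329 desert sites (7.18%) no other desert site lay within 200 kb.

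A desert was taken as the sequence between neighbouring protein-coding genes. Of 907 such stretches with sequence more than 200 kb from a TSS, 677 held at least 1 desert site, with a median of 4, and 115 held 50% of the sites. The 10 with most sites held 455 sites, 9.92% of the total in 3.45% of the desert sequence. They were chosen by number of sites, which favours a share of sites above the share of sequence. The desert between Kcnj2, a potassium channel gene, and Sox9, the master regulator of cartilage formation, had most (chromosome 11, 57 sites in 1.28 Mb, 44.4 per Mb). It was followed by the desert between Slc4a3 and Epha4, a receptor tyrosine kinase gene of limb and nerve patterning (chromosome 1, 53 sites, 40.2 per Mb).

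In the Sox9 desert, HOXA13 replicates 1, 2 and 3 called 56, 48 and 48 of the 57 sites and the HOXD13 replicates 22, 47 and 36. Over all desert sites the same lists called 97.2%, 85.0% and 83.9% with HOXA13 and 40.0%, 79.1% and 63.0% with HOXD13. All 6 lists called 20 of the 57 sites, and 44 were overlapped by all 3 542 lists. In 42.1% of the 57 sites the main summit of at least 1 list held the consensus. Over the 10 deserts with most sites this last share ran from 27.3% to 45.95%. It counts a match in any list and so cannot be set beside the shares per list given above. Its highest site (chr11:112224571-112225983) lay 556.9 kb from the Sox9 start, with fold enrichments of 15.1, 13.4 and 7.30 for HOXA13 and 5.81, 12.1 and 5.88 for HOXD13. None of the 6 main summits there held the consensus in the 50 bp window centred on it. In the Epha4 desert the HOXA13 lists called 53, 47 and 47 sites and the HOXD13 lists 24, 44 and 33, and 18 sites were in all 6. The site nearest to the Epha4 gene lay 77.4 kb from its end and more than 200 kb from its starts. The highest site of the Epha4 desert (chr1:77037472-77038793), 477.0 kb from the Epha4 start, had fold enrichments of 14.6, 12.7 and 7.47 for HOXA13 and 6.22, 9.10 and 7.36 for HOXD13.

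The next deserts lay beside genes of several roles. Zfp608 and Gramd3 (chromosome 18) and Ttll7 and Adgrl2 (chromosome 3) flanked 48 sites each, at 49.0 and 33.2 per Mb. Sall1, a zinc finger gene of limb and kidney development, and Tox3 flanked 45 sites at 49.8 per Mb on chromosome 8, of which 8 were called in all 6 lists. Sel1l and Flrt2 (chromosome 12) flanked 44 sites and Zeb2 and Acvr2a (chromosome 2) 43, spread over 3.41 and 2.81 Mb at 12.9 and 15.3 per Mb. Mki67 and Mgmt (chromosome 7) flanked 42 sites at 62.4 per Mb, the densest of the 10. Slc10a2 and Efnb2, an ephrin ligand gene, flanked 38 sites (chromosome 8, 14.9 per Mb), and Fat4 and Intu, genes of planar cell polarity, flanked 37 (chromosome 3, 29.9 per Mb). In each of the 10 deserts HOXA13 replicate 1 called the most sites and HOXD13 replicate 1 the fewest. These 2 lists were also the highest and lowest over all desert sites (97.2% and 40.0%) and over all retained sites (97.5% and 44.1%). Between 8 and 20 sites of each of the 10 deserts were called in all 6 lists, and between 28 and 44 were overlapped by all 3 542 lists.

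The highest site of each of these deserts had a median percentile between 90.7 and 98.99 and lay at least 287.3 kb from a TSS, and all 10 were overlapped by all 3 542 lists. The farthest was that of the Efnb2 desert (chr8:7025875-7027337), with fold enrichments of 15.9, 15.3 and 7.65 for HOXA13 and 7.91, 9.59 and 8.26 for HOXD13, and the consensus at the main summit of 3 lists. The site with most read ends lay between Mki67 and Mgmt (chr7:136606231-136608342), with pileups of 793, 372 and 183 for HOXA13 and 87, 331 and 116 for HOXD13. The main summit of at least 1 list held the consensus at 4 of the 10.

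**Figure D4:**
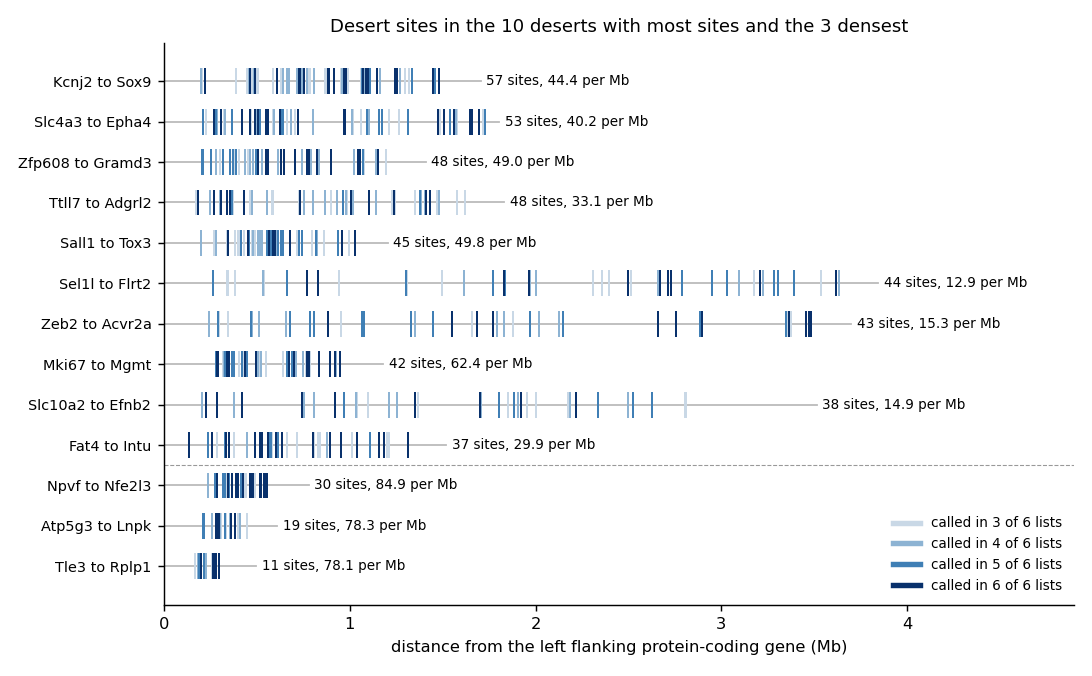
Position of each desert site (tick) by distance from the left flanking gene in Mb (horizontal), in the 10 deserts with most sites and, under the dashed line, the 3 densest; darker ticks were called in more of the 6 wt lists. Sites can lie only in sequence more than 200 kb from a TSS. Those of the Sox9 desert are spread from 196.6 kb past Kcnj2 to 226.6 kb before Sox9, while those beside Mki67, Npvf, Lnpk and Tle3 stand close together. The rule favours this closeness in short deserts, as it leaves 0.353 of 0.778 Mb beside Npvf and 0.141 of 0.495 Mb beside Tle3.

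Among deserts with at least 10 sites, the 3 densest were short. That between Npvf and Nfe2l3 on chromosome 6 held 30 sites in 0.353 Mb (84.9 per Mb). The HOXA13 lists called 30, 29 and 24 of these and the HOXD13 lists 20, 29 and 19, and 15 were in all 6 lists. The desert between Atp5g3 and Lnpk on chromosome 2, in the regulatory domain that drives HoxD genes in digits and ending 148 kb from Hoxd13, held 19 sites (78.3 per Mb). The desert between Tle3, a corepressor gene, and Rplp1 on chromosome 9 held 11 (78.1 per Mb). None of the sites of these 3 deserts was called with HOXA13 alone. At the other end, 230 deserts with 49.95 Mb held no site, the longest being the 3.81 Mb between Cntnap5b and Cdh20 on chromosome 1, both genes of cell adhesion proteins.

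Deserts were grouped by their flanking genes with lists of genes. The lists were chosen with earlier results of these data known, so their densities are a description only. Members of a gene family could fall in different lists. Epha4 and Epha7 were in the limb list, and Epha5 and Epha6 in the list of neuronal adhesion and synaptic genes. Of 113 limb patterning and skeletal regulators, 60 flanked 75 deserts, and 69 of these held sites: 708 in 34.1 Mb, or 20.7 per Mb, beside 9.53 per Mb over all deserts. The median desert of this list had 21.3 sites per Mb, against 7.504 over all 907. Intervals per Mb in these deserts were 34.0, 22.8 and 29.5 in the HOXA13 lists and 9.41, 25.2 and 18.3 in the HOXD13 lists. Over all deserts the same lists had 16.7, 11.1, 15.6, 4.27, 11.6 and 9.44, lower in each of the 6. Besides Sox9, Epha4, Sall1 and Efnb2, the list included the deserts of Efna5 (31 sites), an ephrin gene, of Tbx3 (24 sites, beside Med13l), a T-box gene of posterior limb identity, of Hand2 (15 sites, beside Fbxo8), which acts upstream of Shh in the limb bud, and of Shox2 (14 sites, beside Veph1), a homeobox gene of the proximal limb skeleton. Ebf1, a helix-loop-helix factor gene, flanked 27 sites with Clint1 at 54.5 per Mb.

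Of 128 developmental transcription factors outside that list, 53 flanked 65 deserts with 470 sites in 31.9 Mb (14.7 per Mb, median desert 17.3). Beside Tox3 and Zeb2 these included Pou3f3 (25 sites), Bcl11a (24) and Nr2f2, with 21 sites on the side of Gm10295 and 16 on the side of Arrdc4. Of 109 neuronal adhesion and synaptic genes, 93 flanked 131 deserts that made up 145.8 Mb, 30.3% of all desert sequence. They held 870 sites, 19.0% of the total, at 5.97 per Mb with a median desert of 4.47, led by the deserts of Adgrl2 (48 and 35 sites on its 2 sides), an adhesion receptor gene, and Flrt2 (44). A desert with a gene of 2 lists, such as that of Sall1 and Tox3, counted in both, and the 640 deserts without a listed gene had 9.57 sites per Mb. The GC content of the desert sequence was 39.7%, 39.4% and 37.5% for the 3 lists and 39.1% without a listed gene, and its part in these densities was not tested. The 75 deserts of the limb list, in 34.1 Mb, were shorter on average than the 131 deserts of the neuronal list. Site density also fell with distance from a TSS, from 14.1 per Mb at 200 to 300 kb to 3.52 beyond 1000 kb. The part of desert length and distance was not tested.

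**Figure D5:**
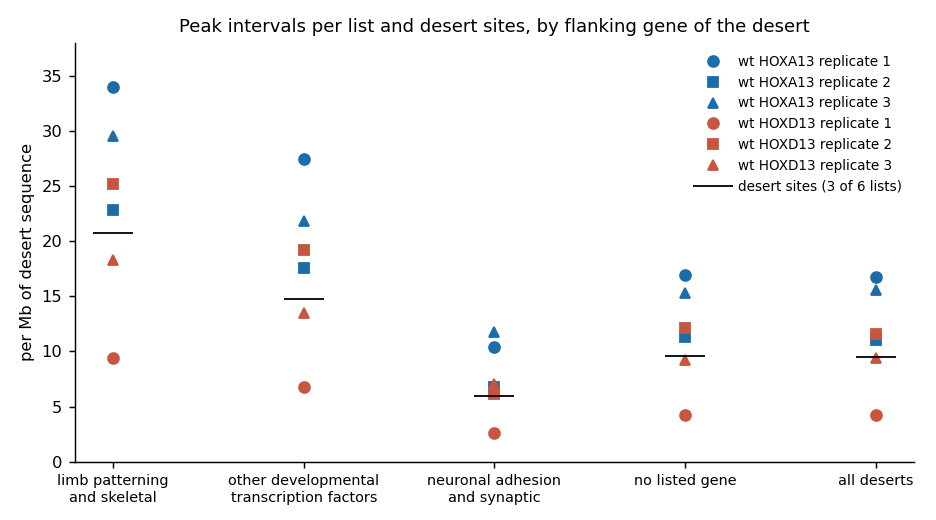
Peak intervals of each wt list per Mb of desert sequence (points, vertical from 0) and retained desert sites per Mb (black bars), for deserts flanked by a gene of each list, by none, and for all deserts. In each of the 6 lists the deserts of limb regulators lie above all deserts and those of neuronal genes below.

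Most desert sites were called again in the 542 lists. The 542 HOXA13 lists overlapped 91.6% and 88.9% of the 4421 desert sites outside chromosome 2 past the insertion, and the 542 HOXD13 list 78.4%. The same lists overlapped 91.4%, 85.4% and 81.9% of all retained sites and 90.2%, 84.5% and 79.1% of near intergenic sites. The mean difference between desert and near sites was 1.68 points, with p = 0.5 by an exact sign-flip permutation test over 3 lists, where the smallest possible p is 0.25, and adjusted p = 0.571. Of 1213 desert sites called in all 6 wt lists, 1069 (88.1%) were overlapped by all 3 542 lists. Taken singly, the 542 HOXA13 lists overlapped 98.1% and 98.68% of these 1213 sites and the 542 HOXD13 list 88.54%. For the 2826 near intergenic sites called in all 6 wt lists the shares were 99.04%, 98.73% and 91.9%. Desert sites of this class were thus not called again more often than near ones in any 542 list. The share overlapped by all 3 542 lists is not given for near sites.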

How the data were processed

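Per the labels and the methods of the study, the authors trimmed adapters with cutadapt, mapped read pairs with Bowtie (wt on mm10, 542 on the mutant genome), and called peaks with MACS2 for each library without a control, extending read ends to 200 bp; duplicates, where retained, raise pileups. The deposited lists give fold enrichment (a ratio), −log10 p-value, −log10 q-value and an integer score by peak, all relative to the library's own background. Only the first 3 were used, the score was left out. Peak rows sharing both ends, which differ in summit, were taken as 1 interval, giving 23939 to 117719 per list. Pileups were recovered from the deposited ratio and −log10 p-value (whole within 0.01 for at least 99.9%), giving 36.9 to 65.5 M read ends per list. wt HOXD13 replicate 3 is a reanalysis of an earlier sample, and both replicates 3 carry peak names of another style. The p-values measure the spread between these lists, part of which may be technical.

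The gene annotation was GENCODE basic on GRCm38. Tests were exact permutations of list labels or exact sign flips over lists, with Benjamini-Hochberg adjustment over 8 tests and a threshold of p = 0.05. Settings were compared by the unadjusted p, and no adjusted p was under the threshold. The members, gene lists and rules were chosen with earlier results of these data known. Named deserts were the 10 with most sites and the 3 densest with at least 10. Named sites were the 10 highest in all 6 lists, the highest of each of those deserts, the 3 highest called with either antibody alone and the 3 farthest from a TSS. Flanking genes were named from the lists by number of sites. Deserts without sites, the call classes in the 542 lists and the distance classes were added after the data were seen. Alternatives were other distance limits, definitions of intergenic, peak thresholds, numbers of lists, repeat content, ranking, motif settings, each replicate left out, both replicates 3 left out, and a replicate block. The scripts were tested on simulated data. Python 3.11.15, numpy 2.4.6, pandas 2.3.3, scipy 1.17.1 and matplotlib 3.10.9 were used. The sequence of 1 named site and 1 distance of a desert to a gene are not reported here.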

Additional observations from a re-analysis of the deposited data

Results flagged for a closer look

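The overlap of desert sites with 542 lists differed in direction between the HOXA13 lists and the HOXD13 list. The 542 HOXA13 lists overlapped a larger share of desert than of near intergenic sites, by 1.34 and 4.42 points (mean 2.88), while the single 542 HOXD13 list overlapped a smaller share (-0.730 points). This difference was not tested, since the second group is 1 library. The title of that library gives E11.5 and its list is the longest, so antibody, stage and length cannot be told apart. On chromosome X, outside the autosomes of the rule, 42 of 677 sites called in at least 3 wt lists met the same distance rule (6.20%), and 6 of the 42 were called in all 6 lists.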

How the results depend on the processing

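Of 127 recomputed comparisons, 112 kept their direction, among them all for the calls by antibody (log2 ratio 0.21 to 0.80), the consensus by antibody (1.81 to 4.30 points) and the 542 against wt share (0.596 to 2.63 points). These have too few lists to reach p under the threshold in any setting, so their side of it says nothing of stability. The lower desert density kept its sign in all 13, from -1.29 to -0.52. As reported, only its unadjusted p of 0.03125 (exact sign-flip permutation) was under the threshold, since the adjusted p was 0.25. Without 1 replicate the unadjusted p was 0.0625 (-0.83 to -0.67, the smallest 5 lists allow by the exact sign-flip permutation). It was 0.25 with the replicate block (-0.76, the smallest, permutation) and 0.125 without both replicates 3 (-0.93, the smallest, permutation). Fewer units allow no lower p. The share by antibody ran from -0.15 to 2.59 points when 1 replicate was left out, reversing without HOXA13 replicate 3. The percentile difference was -0.55 with fold enrichment of at least 5. The consensus log2 ratio, near 0, was 0.0347 with a limit of 100 kb, 0.0200 outside protein-coding genes only, 0.0252 with at least 2 lists and 0.0475 in 100 bp. It was 0.0304 without both replicates 3 and -0.0284 to 0.0418 without 1 replicate. Its unadjusted p was under the threshold at -0.10 with fold enrichment of at least 5. In the opposite direction it was also under it at 0.14 with RTAAA (p = 0.03125 each, exact sign-flip permutation). The 542 overlap difference was -1.88 points with fold enrichment of at least 5, -0.53 with −log10 q of at least 5, -0.0223 and -0.65 with at least 4 and 5 lists, and -0.44 to 1.93 without 1 replicate, negative without HOXD13 replicate 2. The number of desert sites was 7526 with a limit of 100 kb, 1375 with 500 kb, 1260 with fold enrichment of at least 5, 2962 with −log10 q of at least 5, 2247 with at least 5 lists and 3373 to 4512 without 1 replicate. Stricter limits keep fewer sites by construction; the cause of the other changes was not tested.

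Same-numbered wt lists deviated from their antibody means with correlations of -0.10, 0.20 and 0.37 over retained sites, and 0.04, 0.12 and 0.23 over all merged sites, so the numbers were not taken to pair them; over retained sites, only the lists numbered 3 correlated best with their own number in both directions. The replicate block changed no other call. A site without a call may lie under the threshold of a list: HOXD13 replicate 1 has 23599 autosomal intervals from 38.5 M read ends and HOXD13 replicate 3 has 36944 from 36.9 M, so the lengths of the lists did not follow depth alone.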
